A study of Mus musculus with 27 samples.

Results

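Interferon-stimulated genes were followed through 8 weeks of radiation injury of the mouse rectum. The genes were taken by symbol from a list of 37 symbols, which was drawn up with earlier results of these data known. Of the list, 34 were found among the 19690 genes of the count table. Of these, 21 are linked mainly to type I interferon and 13 mainly to interferon gamma. Irf8, Mx1 and Mx2 were not analysed here. RNA had been sequenced from rectal tissue of 27 female mice, C57BL/6 by the labels and C57BL/6J by the methods, which form 9 groups of 3. The mice were aged 8 to 10 weeks when obtained, so those taken at later times were older. Irradiated mice had 25 Gy of X-rays given once to the lower pelvis under anesthesia behind a lead shield, and the 5 irradiated groups differ in how long after irradiation the rectum was taken: 4 h, then 1 day and 3 days, then 2 weeks and 8 weeks. The 4 sham groups were anesthetized only, for all those times but 1 day, where the sham mice at 4 h served as controls as well. Each library is taken as 1 mouse. The total count per library was 17966356 to 23281174. Summed markers of intestinal epithelium stood at 8047 to 10572 CPM (counts scaled to the size of the library) in the sham mice.

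Interferons are secreted proteins that put cells on guard against infection. Type I interferons signal through a receptor that activates a complex with STAT2 and IRF9, which binds the interferon-stimulated response element (ISRE) in front of antiviral genes. Interferon gamma, made mostly by T cells and natural killer cells, acts through the gamma-activated site (GAS) and raises IRF1, guanylate-binding proteins and the machinery that loads peptides on class I molecules. The programmes overlap, many genes answer to both, and the split into type I-linked and gamma-linked genes is a convention. In the gut epithelium these genes are part of the defence against viruses and bacteria.

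Promoter letters are shown for 7 genes described further on, 4 type I-linked and 3 gamma-linked, chosen because they hold an ISRE or GAS core, which is in capitals. They are examples, and some genes with large changes, such as Ifi44 and Cd274, whose windows hold neither core, are not shown. The ISRE core searched was GAAA, any 2 bases and GAAA on either strand, and the GAS core was TTC, any 3 bases and GAA, which reads alike on both strands. Each stretch holds the 150 bases before the gene's start, 5′ to 3′ on the gene's strand, in RefSeq's annotation of GRCm38.p6. Isg15 (chr4:156200819-156200968, minus strand) holds 3 overlapping ISRE cores in a row.
Isg15: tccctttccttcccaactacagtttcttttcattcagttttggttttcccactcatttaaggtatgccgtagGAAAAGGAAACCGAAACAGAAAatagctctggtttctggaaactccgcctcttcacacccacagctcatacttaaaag
Ifit1 (chr19:34640739-34640888, plus strand) holds 2 such cores, and Rsad2 (chr12:26456453-26456602, minus strand) and Oas3 (chr5:120777660-120777809, minus strand) hold 1 each.
Ifit1: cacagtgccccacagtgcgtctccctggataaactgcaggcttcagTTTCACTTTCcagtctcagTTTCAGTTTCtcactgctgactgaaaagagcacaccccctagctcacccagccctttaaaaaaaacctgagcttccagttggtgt
Rsad2: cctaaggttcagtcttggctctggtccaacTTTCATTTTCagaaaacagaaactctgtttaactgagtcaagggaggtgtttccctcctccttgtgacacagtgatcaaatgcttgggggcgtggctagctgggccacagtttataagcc
Oas3: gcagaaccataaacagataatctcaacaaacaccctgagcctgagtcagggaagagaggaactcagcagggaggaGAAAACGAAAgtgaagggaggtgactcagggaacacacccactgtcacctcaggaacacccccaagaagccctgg
Among the gamma-linked genes, Gbp2 (chr3:142620513-142620662, plus strand) holds an ISRE core, and Gbp5 (chr3:142496784-142496933, plus strand) and Irf1 (chr11:53769864-53770013, plus strand) hold a GAS core.
Gbp2: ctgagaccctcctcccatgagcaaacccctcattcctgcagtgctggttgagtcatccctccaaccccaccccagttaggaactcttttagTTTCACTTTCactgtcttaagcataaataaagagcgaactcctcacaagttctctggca
Gbp5: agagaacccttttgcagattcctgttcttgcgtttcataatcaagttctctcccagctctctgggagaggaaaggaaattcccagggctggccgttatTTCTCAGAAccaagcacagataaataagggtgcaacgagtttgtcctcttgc
Irf1: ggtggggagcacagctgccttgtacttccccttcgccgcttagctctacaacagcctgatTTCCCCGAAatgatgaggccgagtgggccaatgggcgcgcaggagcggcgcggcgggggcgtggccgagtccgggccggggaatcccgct
A last stretch lies between the starts of Tap1 and Psmb9, which stand head to head on chromosome 17 and are read in opposite directions. It is shown on the strand of Tap1 (chr17:34187331-34187555) because Tap1 rose early and Psmb9 was not called higher, and it holds neither core.
Tap1 and Psmb9: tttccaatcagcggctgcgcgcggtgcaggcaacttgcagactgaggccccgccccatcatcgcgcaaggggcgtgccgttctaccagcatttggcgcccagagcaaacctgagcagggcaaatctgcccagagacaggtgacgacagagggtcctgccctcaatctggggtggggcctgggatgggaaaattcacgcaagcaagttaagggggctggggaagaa
Windows of 300 bases, 250 before and 50 after the start, were at hand for 29 of the 34 genes. An ISRE core stood in those of 17 genes (58.6%), against 3.99% of 27025 genes in all, and in 10 of 17 type I-linked genes and 7 of 12 gamma-linked genes. A GAS core stood in 3 of 17 type I-linked and 5 of 12 gamma-linked genes (17.6% and 41.7%), against 9.55% of all genes. These matches are letters in a window and no measure of binding.

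In sham mice at 4 h the levels per length spanned a wide range. B2m, the light chain of class I molecules, had by far the highest mean FPKM, a level scaled for transcript length and library depth, at 402 ± 40.1, and Ido1, the enzyme that breaks down tryptophan, the lowest at 0.385 ± 0.544 (mean ± SD, n = 3). Oas1a and Irf1 stood at 40.0 ± 10.8 and 27.9 ± 3.05 FPKM. Most antiviral genes were low in unirradiated rectum, such as Rsad2 at 0.987 ± 0.415, Oas3 at 0.863 ± 0.902 and Usp18 at 0.692 ± 0.743 FPKM.

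Over the 5 time points the type I-linked genes rose in part at 3 days, 30 of 34 genes rose at 2 weeks and 25 at 8 weeks. A gene is said to rise or fall where edgeR's quasi-likelihood test gave an adjusted p (Benjamini-Hochberg, over all genes tested) under 0.05. At 4 h 1 of 34 genes rose, when 5.78% of all genes tested rose and 5.72% fell. At 1 day 1 rose, against 1.97% of all genes rising and 2.03% falling. At 3 days 9 rose, against 10.4% of all genes rising and 10.1% falling. At 2 weeks 30 rose, against 16.5% rising and 9.3% falling. At 8 weeks 25 rose and 3 fell, against 21.5% rising and 16.5% falling. In this fit the share of interferon-stimulated genes that rose was thus near or below the background in the first day and above it from 3 days on. At 3 days this depended on single mice. Without irradiated mouse 2 only 3 genes were called, when 1265 of 14732 genes were called in either direction. The study's stricter thresholds (adjusted p under 0.01, log2 fold change beyond 1) were met by 14 genes at 2 weeks and 22 at 8 weeks, all of them higher, and by 1 at 4 h, 0 at 1 day and 1 at 3 days. These counts are by edgeR, while the study used DESeq2. The share of all genes that met the thresholds was not counted, so the counts do not rank the times. The pieces hold all layers and cells of the rectum, so more cells of a type and more RNA per cell cannot be told apart in any of these values. An exact permutation test of 1 gene with 3 mice a side has 0.1 as its smallest two-sided p, so calls rest on the model across genes.

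**Figure D1:**
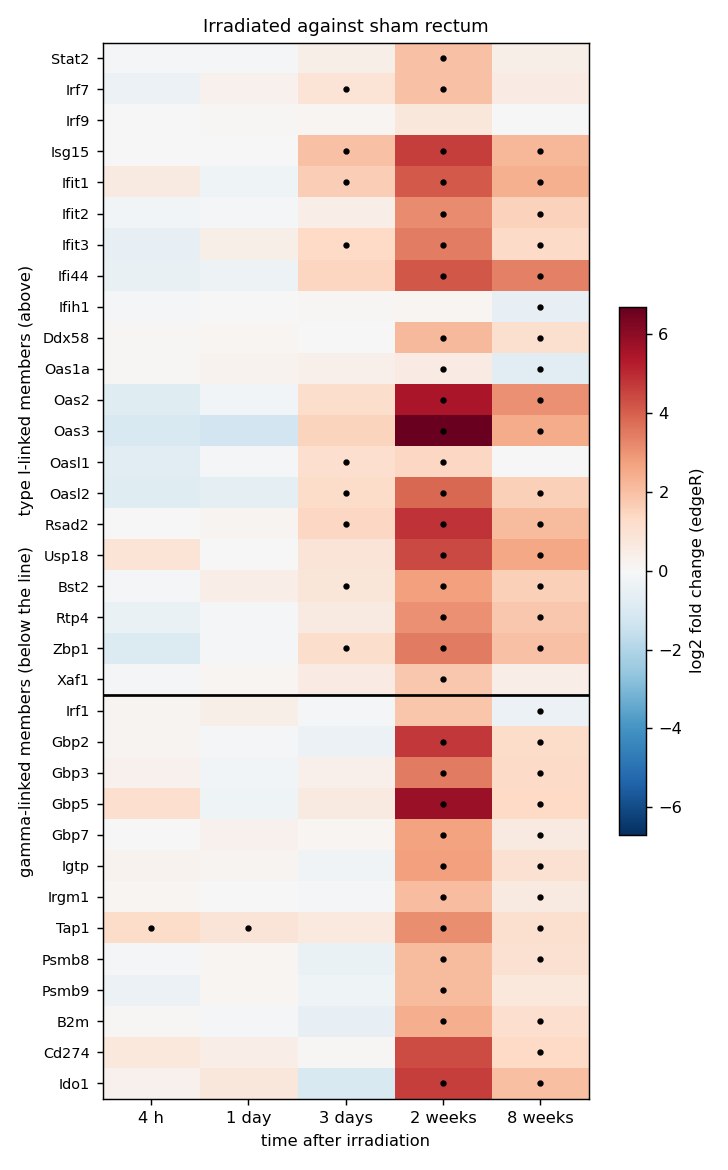
Log2 fold change (colour, edgeR) of each of the 34 genes (rows, 21 type I-linked above the line and 13 gamma-linked below) in irradiated against sham rectum at each time (columns), with a black dot where the adjusted p was under 0.05. Dots fill most of the columns at 2 and 8 weeks, stand only above the line at 3 days (9 genes) and mark Tap1 alone at 4 h and 1 day.

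Tap1 was the only one of these genes that rose at 4 h and at 1 day. It encodes a subunit of the pump that carries peptides into the endoplasmic reticulum for class I molecules and lies on chromosome 17 of mm9 from 34324498 to 34334170. In CPM, scaled by TMM factors, it stood at 20.2, 19.6 and 24.3 in the sham mice at 4 h, at 51.0, 46.0 and 55.7 in the irradiated mice at 4 h and at 41.9, 34.3 and 41.3 at 1 day. Every irradiated mouse lay above every sham mouse at both times. The log2 fold change was 1.23 at 4 h (SE 0.12, adjusted p = 0.000861, edgeR) and 0.86 at 1 day (SE 0.13, adjusted p = 0.0111). With all 9 groups in 1 fit the adjusted p at 4 h was 0.0858, and without sham mouse 1 or irradiated mouse 3 Tap1 was not called at 1 day (adjusted p = 0.0612 and 0.0562). It was not called at 1 day with all 9 groups in 1 fit either, and against the sham mice at 3 days its log2 fold change at 1 day turned to -0.21.

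Psmb9, a subunit of the immunoproteasome that cuts peptides for class I molecules, starts on the other side of the stretch printed above. It stood at 8.97, 8.39 and 10.3 CPM in the sham mice and 7.89, 7.34 and 6.41 in the irradiated mice at 4 h (log2 fold change -0.37, adjusted p = 0.185). All irradiated values were below all sham values there, opposite to Tap1, although the difference did not pass edgeR's test. Both limma fits on FPKM with a filter called Psmb9 lower (log2 difference -0.49 with a pseudocount of 1, adjusted p = 0.0395, and -0.53 with 0.1, adjusted p = 0.0385). At 1 day it was 7.53, 11.1 and 11.8 CPM, which overlaps the sham mice. The difference between both genes' changes was not tested. Psmb8, the next subunit on that chromosome, had a log2 fold change of -0.12 at 4 h (adjusted p = 0.745).

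**Figure D2:**
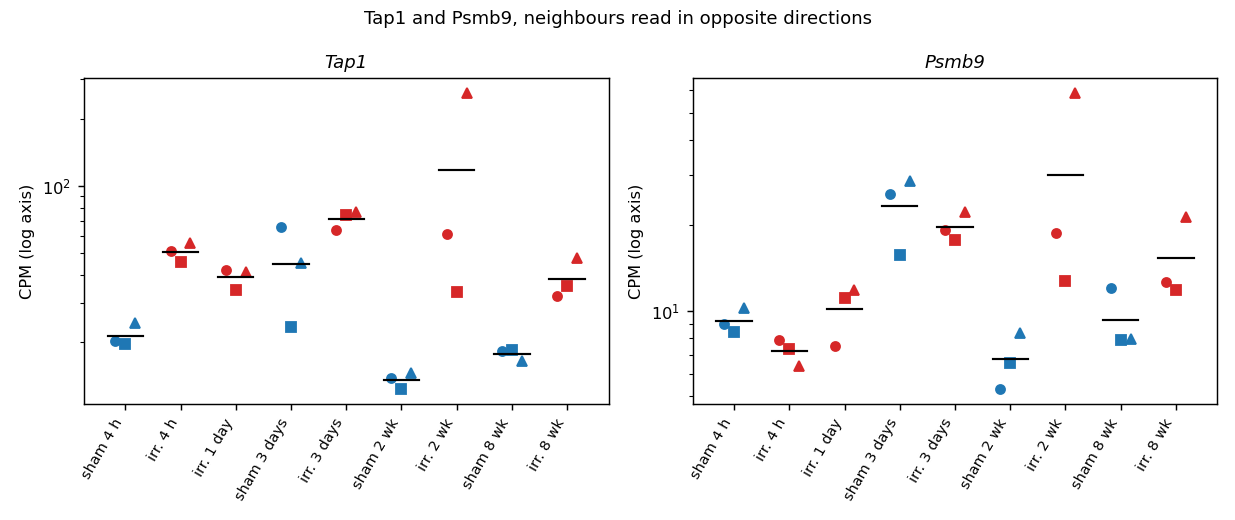
CPM of Tap1 and Psmb9 (log axis) in each mouse of the 9 groups, sham in blue and irradiated in red, with circle, square and triangle for mouse 1, 2 and 3 and a line at the mean. Tap1 is at 46.0 to 55.7 in the irradiated mice at 4 h against 19.6 to 24.3 in the sham mice, while Psmb9 is at 6.41 to 7.89 against 8.39 to 10.3, and both are highest at 2 weeks in irradiated mouse 3.

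By edgeR the genes other than Tap1 gave no call against sham in the first day. None of the 21 type I-linked genes was called at 4 h by edgeR, none had an unadjusted p under 0.05, and 17 had a negative fold change (median log2 fold change -0.15, against 0.00 for all genes). Gbp5, a guanylate-binding protein that promotes inflammasome assembly, stood at 3.67, 3.47 and 6.08 CPM in the sham mice and 13.5, 9.80 and 6.20 in the irradiated mice at 4 h (log2 fold change 1.13, adjusted p = 0.057), and back at 3.69, 3.71 and 3.61 at 1 day. The values at 4 h did not overlap and those at 1 day did. DESeq2 called Gbp5 beside Tap1 at 4 h and called only Tap1 at 1 day. Gbp5 was also called at 4 h without sham mouse 3 or irradiated mouse 3, and Oasl1, as lower, without irradiated mouse 1. At 1 day the type I-linked genes had a median of -0.03, with 0 called by edgeR or DESeq2 and 1 at an unadjusted p under 0.05. Single mice stood apart within groups at these times: in 20 of 21 type I-linked genes irradiated mouse 1 was the highest of the 3 at 4 h, and in 18 of 21 sham mouse 3 was. Ifit1, whose protein binds viral RNA, was at 3.62, 4.93 and 15.1 CPM in the sham mice and at 29.5, 3.34 and 3.59 in the irradiated mice at 4 h. Without irradiated mouse 1 the type I-linked median at 4 h was -0.80, and without sham mouse 3 it was 0.09. Squamous epithelial markers summed to 68.9 CPM in irradiated mouse 3 at 4 h and 185 CPM in irradiated mouse 1 at 1 day, against at most 20.4 CPM in the other mice of these 3 groups, and B cell markers to 3.61 to 42.9 CPM in the sham mice at 4 h against 0.257 to 8.97 and 0.412 to 1.27 CPM in the irradiated mice at 4 h and 1 day. The part of these cells was not tested.

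Between 4 h and 1 day the irradiated mice differed in 4 of the genes, against 6.02% of all genes rising and 5.38% falling. Irf7, the factor that drives further type I interferon production, rose (log2 difference 0.72, adjusted p = 0.031), as did Ifit3 (0.91, adjusted p = 0.0454) and Bst2 (0.58, adjusted p = 0.0354). Bst2, or tetherin, holds budding viruses at the cell surface. Gbp5 fell by 1.40 on the log2 scale (adjusted p = 0.0189). The count went to 0 without irradiated mouse 2 at 4 h or irradiated mouse 2 or 3 at 1 day, to 1 without irradiated mouse 3 at 4 h and to 2 without irradiated mouse 1 at 1 day.

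At 3 days the 9 genes that rose by edgeR were all type I-linked, and none of the 13 gamma-linked genes was called, although B2m was lower with the mouse number as a block and DESeq2 called 1 gamma-linked gene lower. They were Irf7, Isg15, Ifit1, Ifit3, Oasl1, Oasl2, Rsad2, Bst2 and Zbp1. All 21 type I-linked genes had positive fold changes, with a median log2 fold change of 0.93, while 5 of 13 gamma-linked genes did, with a median of -0.12 (all genes, 0.00). At an unadjusted p under 0.05, 15 type I-linked genes were higher and 1 gamma-linked gene was lower. Whether both kinds of gene changed unequally was not tested. Mouse by mouse, the median log2 difference from the sham mean was 0.92, 1.28 and 0.42 for the type I-linked genes and 0.03, -0.13 and 0.46 for the gamma-linked genes, so in mouse 3 the gamma-linked median was the higher.

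Isg15, a ubiquitin-like protein that is joined to other proteins, had the largest change at 3 days. Its level was 7.48, 9.30 and 7.15 CPM in the sham mice and 32.1, 49.7 and 13.7 in the irradiated mice (log2 fold change 1.97, SE 0.40, adjusted p = 0.0131). All irradiated mice were above the sham mice, mouse 2 the most. Usp18, which removes ISG15 and dampens the type I receptor, was at 3.02, 2.07 and 1.28 against 3.30, 6.37 and 2.17 CPM (log2 fold change 0.87, adjusted p = 0.228), and these values overlap.

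Rsad2 (viperin), an enzyme that makes a chain terminator of viral RNA, went from 3.28, 4.77 and 3.26 to 8.38, 14.4 and 6.91 CPM (log2 fold change 1.36, adjusted p = 0.0212). Ifit1 went from 11.1, 16.7 and 9.72 to 34.3, 63.0 and 21.6 CPM (1.64, adjusted p = 0.0194). In both genes irradiated mouse 2 was the highest and mouse 3 the lowest, and no irradiated value reached down to the sham values. Of the antiviral effectors, 4 of 8 rose, and of the oligoadenylate synthetase family, whose active members make the messenger that switches on RNase L, 2 of 5. With the mouse number as a block 7 of 8 and 4 of 5 rose, Ifi44, Rtp4, Xaf1, Oas2 and Oas3 being added, while the calls over all 14449 genes went from 2968 to 4153. Zbp1, a sensor of left-handed nucleic acid that can start necroptosis, went from 34.8, 13.8 and 28.9 to 62.5, 55.3 and 61.8 CPM (1.18, adjusted p = 0.0233). The RNA sensors Ifih1 (MDA5) and Ddx58 (RIG-I) had log2 fold changes of 0.06 and 0.05. Among the transcription factors Irf7 rose at 3 days, from 53.9, 47.5 and 61.2 to 102, 131 and 83.7 CPM (0.93, adjusted p = 0.00975), and with the mouse number as a block Stat2 rose too (0.39, adjusted p = 0.0418).

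The gamma-linked genes at 3 days were read against sham mice that were themselves spread. Gbp2 stood at 250.5, 43.4 and 129.5 CPM in the sham mice and 82.7, 61.0 and 180.3 in the irradiated mice, and Igtp, an immunity-related GTPase, at 145, 30.2 and 45.3 and 63.3, 50.1 and 80.1. In 12 of 13 gamma-linked genes sham mouse 2 was the lowest of its group, and in 10 of 13 sham mouse 1 was the highest. Against the sham mice at 4 h, the sham mice at 3 days had positive fold changes in 13 of 13 gamma-linked genes, with a median of 1.34, but edgeR called 0 of the 34 genes, with 14 at an unadjusted p under 0.05, and 0% of all genes were higher and 0% lower. DESeq2 called 8, all gamma-linked and higher, when it called 504 of 19690 genes in either direction. When the irradiated mice at 3 days were set against the sham mice at 4 h instead, 22 genes rose, 11 of each kind, when 2852 of 14477 genes were called in either direction, so the 0 gamma-linked genes called higher at 3 days hold for the sham mice of the same time and not for those at 4 h. Summed macrophage and monocyte markers were at 56.5, 95.4 and 281.5 CPM in sham mice 1, 2 and 3 at 3 days and B cell markers at 1.13, 11.6 and 125.6 CPM, and their part in the spread was not tested.

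The number of calls at 3 days moved with the setting. Same-numbered mice deviated together at this time, and with the mouse number as a block 15 type I-linked genes rose and B2m fell by 0.51 on the log2 scale (adjusted p = 0.00732). DESeq2 called 13 type I-linked genes higher and 1 gamma-linked gene lower. Without sham mouse 1, 13 type I-linked and 3 gamma-linked genes were called, 15 of them higher, and the gamma-linked median was 0.31. Without irradiated mouse 1 or 2 only 4 and 3 genes were called, Irf7, Isg15 and Ifit3 among them each time, and the lost calls had adjusted p of 0.0520 to 0.142. Over all genes 1301 of 14738 and 1265 of 14732 were then called in either direction. Oasl2 was not called without sham mouse 2 or 3 either, nor Bst2 without sham mouse 2 or irradiated mouse 3, nor Zbp1 without irradiated mouse 3.

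**Figure D3:**
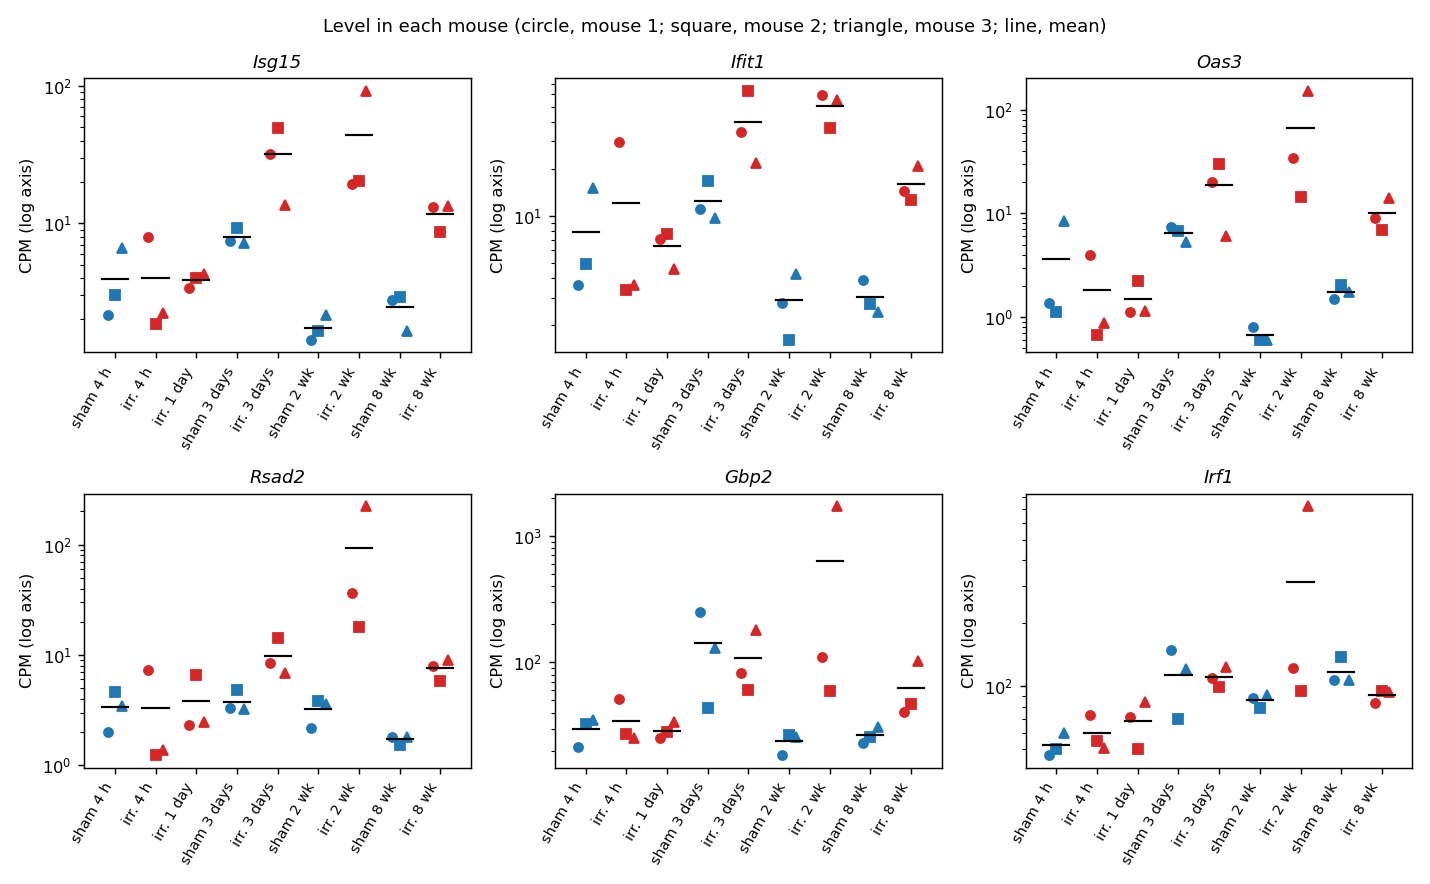
CPM (log axis) of Isg15, Ifit1, Oas3, Rsad2, Gbp2 and Irf1 in each mouse, sham in blue and irradiated in red, with circle, square and triangle for mouse 1, 2 and 3 and a line at the mean. Isg15, Ifit1 and Rsad2 are above the sham mice of the same time at 3 days and all 4 type I-linked genes at 2 weeks, while Gbp2 and Irf1 are spread in the sham mice at 3 days and reach 1710 and 725 CPM in irradiated mouse 3 at 2 weeks.

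At 2 weeks 30 of 34 genes rose and none fell, 19 of 21 type I-linked and 11 of 13 gamma-linked. The median log2 fold change was 3.15 for the type I-linked and 2.77 for the gamma-linked genes, against 0.00 for all 14791 genes tested. All 34 fold changes were positive. The 4 genes that were not called were Irf9, Ifih1, Irf1 and Cd274. The type I-linked calls were 17 to 20 in the alternatives with the same sham mice, but the gamma-linked calls fell from 11 to 5 and 6 in limma on log2(FPKM + 1) and log2(FPKM + 0.1) and to 2 in the former without a filter, and were 13 in the fit of all 9 groups. Without sham mouse 1, 2 or 3 the count was 14, 16 and 16, and without irradiated mouse 1, 2 or 3 it was 27, 33 and 28. The calls over all genes moved too, from 3815 with all mice to 1007, 1359 and 1179 without these sham mice. Without these irradiated mice they were 2488, 6054 and 3059. With any 1 sham mouse left out, B2m was the only gamma-linked gene still called, and Stat2, Oas1a, Oasl1 and Rsad2 lost their call each time.

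Oas3, which makes the RNase L messenger, had the largest change of the 34 genes. It lies on chromosome 5 of mm9 from 121203107 to 121227670 and stood at 0.808, 0.602 and 0.601 CPM in the sham mice and 34.1, 14.5 and 151 in the irradiated mice (log2 fold change 6.62, SE 1.04, adjusted p = 0.00857). Its neighbour Oas2 went from 0.707, 1.65 and 0.801 to 43.1, 12.6 and 83.6 CPM (5.44, adjusted p = 0.00706). Both were high in all irradiated mice, most in mouse 3. Oas1a was already well expressed in sham mice and changed little, from 62.9, 63.3 and 77.2 to 97.6, 88.8 and 111 CPM (0.54, adjusted p = 0.0381), and of the 6 mice irradiated mouse 2 was the only one that could be left out with the call kept. Oasl1 and Oasl2 rose by 1.40 and 3.86 on the log2 scale. Oas1a has near-identical copies next to it, and no source used here says how reads shared among them were counted. The same caution applies to Ifit3 and to the guanylate-binding proteins.

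Isg15 rose from 1.41, 1.65 and 2.15 to 19.4, 20.3 and 92.0 CPM (log2 fold change 4.65, adjusted p = 0.00897) and Usp18 from 0.606, 0.702 and 0.751 to 14.7, 7.53 and 21.9 (4.40, adjusted p = 0.00313). All 8 antiviral effectors rose, by 1.82 (Xaf1) to 4.84 (Rsad2) on the log2 scale. Rsad2 stood at 2.17, 3.86 and 3.60 CPM in the sham mice and 36.1, 17.99 and 223 in the irradiated mice (SE 1.03, adjusted p = 0.0195), and mouse 3 was 8.24 times the mean of the other mice. Ifit1, by contrast, was even across the irradiated mice, at 59.0, 36.4 and 55.4 CPM against 2.78, 1.60 and 4.26 in the sham mice (4.11, SE 0.39, adjusted p = 0.00301). Ifit3, from the same cluster on chromosome 19, was similarly even at 40.7, 36.3 and 48.1 against 4.34, 3.01 and 4.06 CPM (3.44, SE 0.21, adjusted p = 0.00278). Ifi44, an interferon-induced antiviral gene, stood at 19.3, 13.9 and 20.7 against 1.26, 0.702 and 1.00 CPM.

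Among the sensors Zbp1 rose from 4.60, 5.06 and 4.91 to 50.1, 23.05 and 92.4 CPM (log2 fold change 3.50, adjusted p = 0.00678) and Ddx58 from 10.7, 12.8 and 12.6 to 54.1, 28.1 and 79.6 (2.16, adjusted p = 0.0107). Ifih1, the sister sensor of Ddx58, was at 75.8, 85.7 and 92.4 CPM in the sham mice and 82.3, 98.4 and 97.9 in the irradiated mice, an overlap (0.12, adjusted p = 0.53). Of the transcription factors, Stat2 rose from 22.8, 19.1 and 19.4 to 68.1, 41.7 and 129.8 CPM (1.96, adjusted p = 0.0174) and Irf7 from 25.4, 26.5 and 27.5 to 104, 72.5 and 130.3 (1.94, adjusted p = 0.00396). Irf9, which joins STAT2, was at 50.5, 46.8 and 56.2 and 72.1, 55.6 and 136 CPM (0.77, adjusted p = 0.125), with mouse 3 the high one.

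The gamma-linked genes were all highest in irradiated mouse 3 at 2 weeks. Gbp5 stood at 3.33, 3.66 and 3.20 CPM in the sham mice and 34.5, 12.8 and 515 in the irradiated mice (log2 fold change 5.78, SE 1.48, adjusted p = 0.0324). Gbp2, on chromosome 3 of mm9 from 142283566 to 142300972, stood at 18.4, 26.9 and 25.9 and 111, 59.0 and 1710.0 CPM (4.72, SE 1.34, adjusted p = 0.0441). In mouse 3 these genes were 21.8 and 20.2 times the mean of mice 1 and 2, which still lay above every sham mouse. Cd274, the checkpoint ligand PD-L1, was at 5.56, 5.41 and 7.26 and 30.9, 7.38 and 342 CPM (4.38, adjusted p = 0.056), and Irf1 at 87.8, 78.8 and 90.4 and 122, 94.8 and 725 CPM (1.87, adjusted p = 0.118). All irradiated mice exceeded the sham mice in both, yet the spread kept them from passing. Ido1 was at 0.606, 0 and 0.601 and 2.27, 3.07 and 24.9 CPM (4.63, SE 1.31, adjusted p = 0.0432), and it was not called without mouse 3. Each of the 6 interferon-inducible GTPases rose, by 2.09 (Irgm1) to 5.78 (Gbp5) on the log2 scale, and each of the 4 class I genes, by 2.10 (Psmb8) to 3.11 (Tap1). Tap1 went from 13.8, 12.4 and 14.7 to 61.0, 33.5 and 260.0 CPM (3.11, adjusted p = 0.0285) and B2m from 154, 170.0 and 164 to 829, 459.8 and 1327 (2.41, adjusted p = 0.0085).

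Mouse by mouse, the median log2 difference from the sham mean at 2 weeks was 3.34, 2.35 and 3.46 for the type I-linked genes and 2.16, 1.29 and 3.82 for the gamma-linked genes in irradiated mice 1, 2 and 3. The type I-linked median was the larger in mice 1 and 2 and the smaller in mouse 3. Of the type I-linked genes 19 of 21 were highest in mouse 3. Over the genes of each kind, mouse 3 was at a median of 5.36 times the mean of the other mice for the gamma-linked genes and 1.94 times for the type I-linked ones. Without mouse 3 the median log2 fold changes were 2.89 and 1.68 for type I-linked and gamma-linked genes, and 28 genes rose, with Oas1a and Ido1 no longer called.

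Transcripts of the interferon gamma gene were seen mainly in that mouse. Ifng was at 0.202, 0 and 76.1 CPM in irradiated mice 1, 2 and 3 at 2 weeks, with 1575 counts in mouse 3, and at 0 in the libraries of the other 8 groups but for 1 count in a sham mouse at 3 days. It did not pass edgeR's filter on low counts and was not tested. The part of Ifng in the levels of the gamma-linked genes was not tested either. The chemokine genes Cxcl9 and Cxcl10, which draw T cells and answer to interferon gamma, were highest in mouse 3 as well, at 12.2, 5.35 and 196 and 14.9, 4.31 and 382 CPM. Of 11 interferon genes looked for, 4 were in the table, and beside Ifng the highest count in any library was 1 for Ifna2, 2 for Ifnk and 3 for Ifne. The other 7 were not analysed here.

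**Figure D4:**
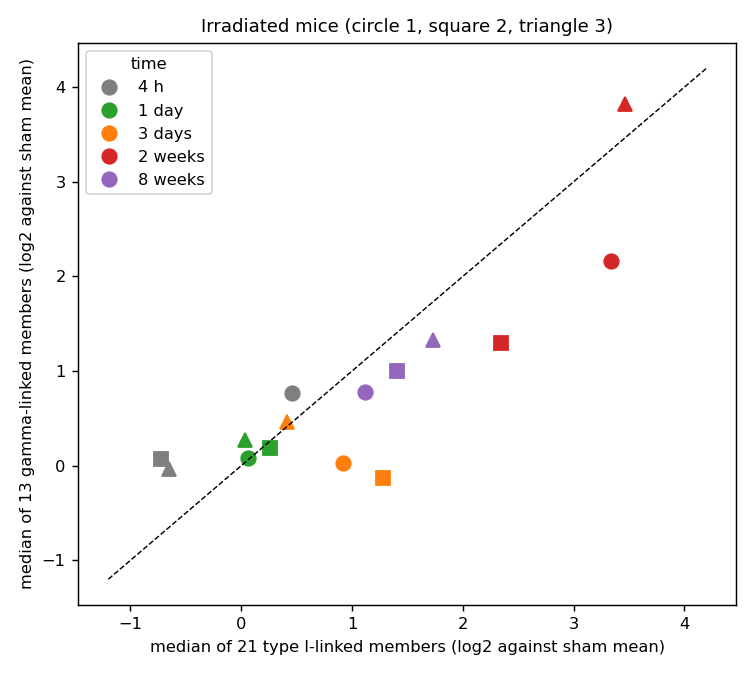
Each point is an irradiated mouse, with the median log2 difference from the sham mean of the same time over 21 type I-linked genes (x axis) and 13 gamma-linked genes (y axis), colour for time and circle, square and triangle for mouse 1, 2 and 3, and a dashed line where both are equal. Mice at 2 and 8 weeks lie below the line but for mouse 3 at 2 weeks (3.46 and 3.82), and at 3 days mice 1 and 2 lie near 0 on the y axis (0.03 and -0.13) and mouse 3 just above the line (0.42 and 0.46).

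Markers of other cells moved along with these genes at 2 weeks. Summed neutrophil markers (S100a8, S100a9, Csf3r and Cxcr2) were at 3138, 733 and 16904 CPM in irradiated mice 1, 2 and 3, against at most 1.75 in the sham mice, and macrophage and monocyte markers at 2229, 617 and 2734 against 61.4 to 99.7. Markers of NK and cytotoxic cells were at 4.59, 1.09 and 43.2 CPM against 0.51 to 0.75. T cell markers were at 7.67, 2.97 and 20.6 CPM against 2.41 to 3.71. Intestinal epithelial markers were lower, at 4415, 7611 and 4432 CPM against 8047 to 8479. Fibroblast markers were at 2277 to 4496 CPM against 383 to 727, and endothelial markers at 212 to 381 against 57.4 to 77.7. For these 4 immune lists and that of dendritic cells mouse 2 was the lowest and mouse 3 the highest, as in the gamma-linked medians. B cell markers (12.7, 1.09 and 1.498 CPM) and plasmacytoid dendritic cell markers (15.3, 10.9 and 14.4 CPM, against 1.72 to 5.41 in the sham mice) were highest in mouse 1. The part of these cells in the interferon-stimulated genes was not tested. Most of the plasmacytoid sum was Ly6d, at 14.1, 10.4 and 13.3 CPM, while Siglech, which defines these strongest makers of type I interferon, was at 0.252, 0.0496 and 0.0483 CPM against 0.909, 0.551 and 0.901 in the sham mice.

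**Figure D5:**
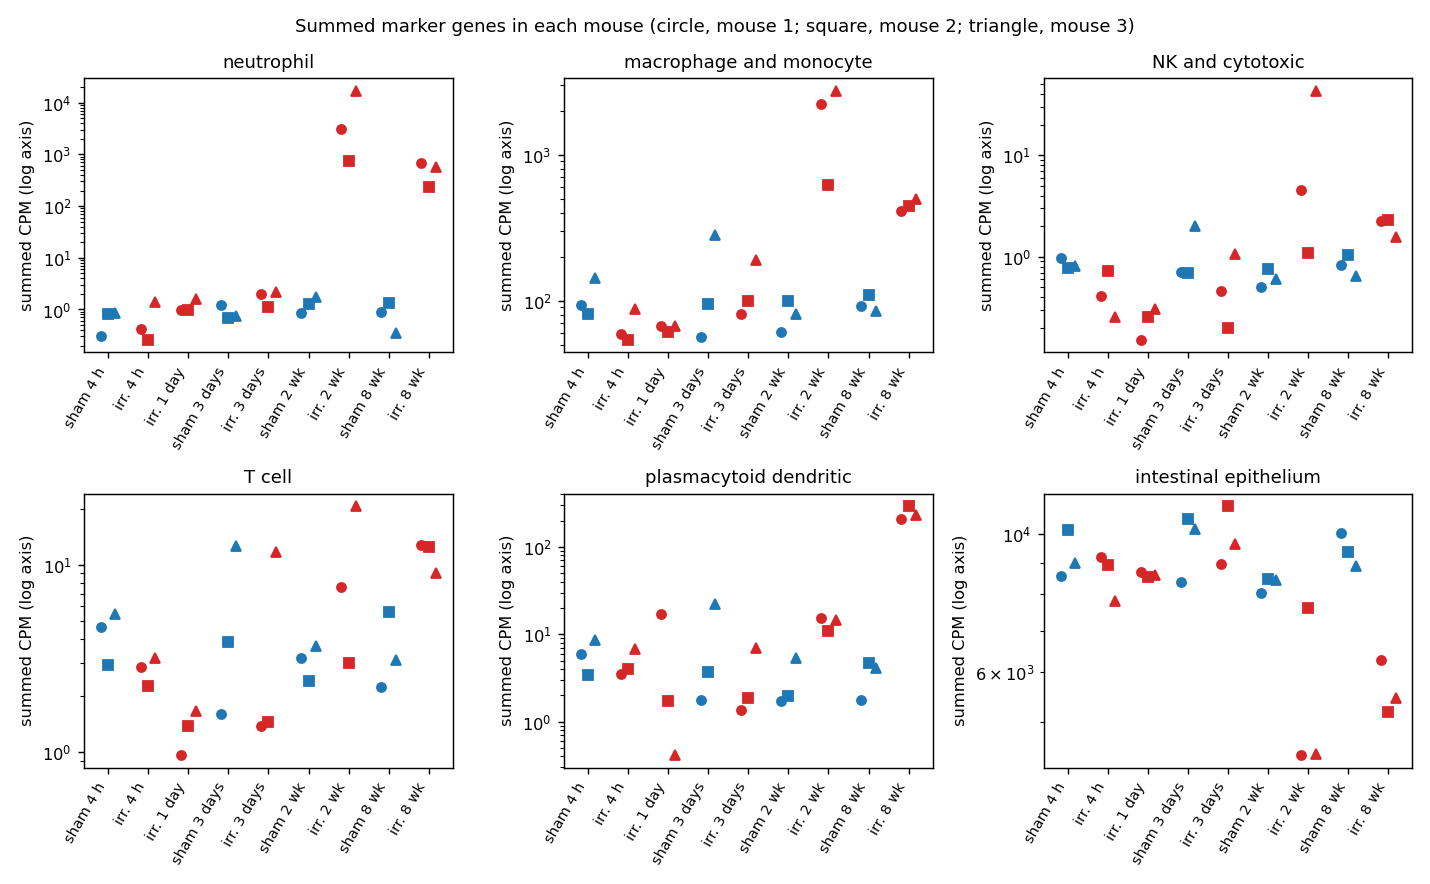
Summed CPM (log axis) of fixed marker lists of 6 cell types in each mouse of the 9 groups, sham in blue and irradiated in red, with circle, square and triangle for mouse 1, 2 and 3. Neutrophil markers go from at most 2.22 CPM up to 3 days to 733 to 16904 CPM in the irradiated mice at 2 weeks and 236 to 681 CPM at 8 weeks.

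At 8 weeks 25 genes rose and 3 fell. Of the type I-linked genes 14 rose and 2 fell, and of the gamma-linked genes 11 rose and 1 fell. In the fit of all 9 groups the gamma-linked calls fell from 12 to 3 while the type I-linked ones were 16 in both. The median log2 fold changes were 1.60 and 1.08, against 0.01 for all genes. The mice were more alike than at 2 weeks, with per-mouse medians of 1.11, 1.40 and 1.73 for type I-linked and 0.78, 1.00 and 1.32 for gamma-linked genes.

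Ifi44 had the largest rise at 8 weeks, from 0.838, 0.495 and 0.753 to 7.94, 6.02 and 8.27 CPM (log2 fold change 3.37, SE 0.30, adjusted p = 0.000201). Oas2 went from 0.691, 1.68 and 1.00 to 3.78, 12.7 and 12.9 CPM (3.06, adjusted p = 0.00376) and Usp18 from 0.888, 0.941 and 0.702 to 4.49, 6.22 and 5.17 (2.60, adjusted p = 0.000387). Isg15 stood at 2.76, 2.92 and 1.66 and 13.2, 8.57 and 13.3 CPM (2.22, adjusted p = 0.00117). In these genes every irradiated mouse was above every sham mouse. Bst2 had one of the smallest errors, at 7.55, 8.57 and 7.78 and 25.6, 21.8 and 26.6 CPM (1.60, SE 0.14, adjusted p = 0.000199). Rtp4, a chaperone of receptors on their way to the cell surface, rose by 1.83 on the log2 scale (adjusted p = 0.000321). Of the gamma-linked genes B2m had the smallest adjusted p, at 159, 166 and 142 and 329, 376 and 340.2 CPM (1.13, adjusted p = 0.000271). Gbp5 was at 4.00, 3.52 and 3.31 and 8.13, 10.6 and 9.15 CPM (1.33, adjusted p = 0.00155), Ido1 at 0.592, 0.891 and 0.602 and 1.53, 3.36 and 3.79 (2.00, adjusted p = 0.00861) and Cd274 at 3.60, 5.30 and 5.12 and 7.94, 15.4 and 13.7 (1.36, adjusted p = 0.00766).

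Of the 3 genes that fell at 8 weeks, Ifih1 and Oas1a each had close relatives that rose. Ifih1 went from 95.3, 91.8 and 92.3 to 63.8, 55.0 and 75.0 CPM (log2 fold change -0.56, adjusted p = 0.0105), while its sister sensor Ddx58 rose from 13.4, 12.5 and 11.8 to 21.8, 30.3 and 29.4 (1.07, adjusted p = 0.0011). Oas1a went from 92.0, 101 and 88.9 to 55.9, 48.4 and 74.9 CPM (-0.69, adjusted p = 0.0137), while Oas2, Oas3 and Oasl2 rose. In both genes the irradiated and sham mice did not overlap. Irf1 went from 107, 137 and 107 to 82.8, 95.3 and 93.9 CPM (-0.40, adjusted p = 0.0396), a fall that was not called without any 1 of the 6 mice and that turned to a rise of 0.79 against the sham mice at 4 h. Without sham mouse 2 Oas1a, Gbp7 and Irgm1 were not called at 8 weeks, and Gbp2 was not called without any 1 sham mouse. Summed intestinal epithelial markers were also lower at 8 weeks, at 5175 to 6272 CPM against 8877 to 10045, and their part in these falls was not tested. The genes with no call at 8 weeks were Stat2, Irf7, Irf9, Oasl1, Xaf1 and Psmb9, with log2 fold changes of 0.37, 0.54 and 0.04 for the 3 transcription factors among them.

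Other cell markers at 8 weeks stood apart too. Neutrophil markers summed to 236 to 681 CPM against at most 1.34 in the sham mice, and macrophage and monocyte markers to 413 to 501 against 84.7 to 109.8. Squamous epithelial markers were at 2874 to 6122 CPM in the irradiated mice against 1.58 to 2.87 in the sham mice. A list of plasmacytoid dendritic cell markers reached 206 to 291 CPM, but Siglech was at only 0.956, 0.401 and 0.148 CPM and the sum came from Ly6d, a gene also found in squamous epithelium. The part of any of these cells in the interferon-stimulated genes was not tested.

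By edgeR the sham groups differed from each other in at most 3 of these genes, but DESeq2 called 8 at 3 days, all higher, 11 at 2 weeks, 10 of them lower, and 4 at 8 weeks, 3 of them lower. Of all 19690 genes DESeq2 called 504, 1730 and 1264 at these times in either direction. By edgeR, against the sham mice at 4 h, at 2 weeks Irf1 was higher (log2 difference 0.71, adjusted p = 0.0131) and Ifit3 (-1.16, adjusted p = 0.04) and Tap1 (-0.65, adjusted p = 0.0272) were lower, when 2.94% of all genes were higher and 3.67% lower. Without sham mouse 1 or 3 at 2 weeks the count was 0, without mouse 2 at 2 weeks or mouse 3 at 4 h it was 1, and without mouse 1 at 4 h it was 7, as it was with the mouse number as a block. At 8 weeks Irf1 alone differed (1.17, adjusted p = 0.00885), when 1.29% were higher and 1.53% lower. It stood at 46.8, 50.3 and 59.9 CPM at 4 h and 107, 137 and 107 at 8 weeks, with no overlap. The median log2 difference of the type I-linked genes from the sham mice at 4 h was -0.63 at 2 weeks, with 1 called by edgeR (Ifit3) and 8 by DESeq2, and -0.39 at 8 weeks, with 0 called by edgeR (5 at an unadjusted p under 0.05) and 2 by DESeq2. Set against the sham mice at 4 h, the type I-linked median at 2 weeks was 2.27 and at 8 weeks 1.02. Of all 34 genes, 22 were then called higher at 2 weeks, 15 type I-linked and 7 gamma-linked. Over all genes 3261 of 14837 were called in either direction. At 8 weeks 19 were called higher and 1 lower, 10 of each kind, when 5563 of 15094 genes were called. These contrasts share the sham mice at 4 h, and time of sampling and age of the mice cannot be told apart in them.

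The radiation effects at different times were also compared with each other, each pair of times in a model of its own. At 3 days the effect was higher than at 4 h in 5 genes, Irf7, Ifit3, Oasl1, Bst2 and Zbp1, against 9.59% of all genes with a higher and 7.94% with a lower effect. All 5 are type I-linked, and their fold changes at 4 h were negative and not called. The median difference was 1.07 for type I-linked and -0.41 for gamma-linked genes. Without irradiated mouse 1 at 4 h 11 genes were called, and without irradiated mouse 2 at 4 h or at 3 days 3. At 2 weeks the effect was higher than at 3 days in 25 genes, 16 type I-linked and 9 gamma-linked, against 10.2% higher and 6.96% lower, and all 34 differences were positive. Without any 1 mouse other than irradiated mouse 1, 2 or 3 at 2 weeks, sham mouse 2 at 3 days or irradiated mouse 3 at 3 days, 10 to 14 genes were called. From 2 weeks to 8 weeks all 34 differences were negative, and by edgeR Ifit3 (-2.16, SE 0.27, adjusted p = 0.00414) and Oas1a (-1.22, SE 0.23, adjusted p = 0.0293) passed, when 0.784% of all genes had a higher and 0.495% a lower effect. A further 26 had an unadjusted p under 0.05, and DESeq2 called 16 and the fit of all 9 groups 7, all lower. Over all genes DESeq2 called 928 of 19690 and the fit of all 9 groups 748 of 15930 in either direction. The share of all genes at an unadjusted p under 0.05 was not counted. Without irradiated mouse 2 at 2 weeks 24 genes were called, without irradiated mouse 3 at 2 or 8 weeks 3, and without any 1 sham mouse or irradiated mouse 1 at 8 weeks 1. Leaving out irradiated mouse 2 at 2 weeks also took the calls over all genes from 199 to 1222.

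Other genes of the pathway were counted in lists by role. No receptor gene rose at any time, and at 8 weeks 3 of 4 tested fell, when 16.5% of all genes fell. Ifnlr1, the receptor chain for interferon lambda in epithelium, went from 184, 187 and 197 to 89.6, 93.5 and 95.9 CPM (log2 fold change -1.06, adjusted p = 0.000141), and Ifngr1, a chain of the interferon gamma receptor, from 330.3, 339.7 and 361 to 215, 181 and 201 (-0.82, adjusted p = 0.00132). Its partner Ifngr2 changed by -0.46 (adjusted p = 0.0106). No irradiated value overlapped the sham values in these chains. Ifnlr1 had already fallen at 2 weeks (-0.67, adjusted p = 0.0103).

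Among further interferon regulatory factors, Irf5 rose at 2 and 8 weeks (log2 fold changes 3.36 and 1.52, adjusted p = 0.0197 and 0.00628). Irf2, which can hold back IRF1 targets, fell at 3 days (-0.59, adjusted p = 0.0053) and at 8 weeks (-0.74, adjusted p = 0.0031).

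Among 5 feedback inhibitors, Socs3, which blocks JAK kinases, rose at 3 days, 2 weeks and 8 weeks. It went from 4.60, 3.41 and 3.71 to 262, 63.2 and 894 CPM at 2 weeks (log2 fold change 6.69, adjusted p = 0.00845) and from 3.75, 3.76 and 4.97 to 71.3, 81.8 and 60.2 at 8 weeks (4.06, adjusted p = 1.53e-05). Socs1, the inhibitor most tied to interferon, rose at 3 days (1.54, adjusted p = 0.0461) and 8 weeks (1.32, adjusted p = 0.0144). At 2 weeks it was at 6.96, 3.02 and 67.2 CPM against 1.57, 1.55 and 1.80 (adjusted p = 0.0507). The phosphatase gene Ptpn6 fell at 4 h (-0.48, adjusted p = 0.0227).

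Among nucleic acid sensing genes the earliest call was at 4 h. Ikbke, a kinase that phosphorylates IRF3 and IRF7, went from 34.9, 29.4 and 33.8 to 85.3, 97.7 and 102 CPM at 4 h (log2 fold change 1.52, SE 0.11, adjusted p = 0.000195). It stayed up at 1 day (0.54, adjusted p = 0.0358) and 3 days (0.59, adjusted p = 0.00543) and fell below the sham mice at 8 weeks (-0.53, adjusted p = 0.0137). Of 9 sensing genes tested 4 rose and 1 fell at 2 weeks, and 3 rose and 2 fell at 8 weeks, when 16.5% of all genes rose and 9.3% fell at 2 weeks and 21.5% rose and 16.5% fell at 8 weeks. With 9 genes the counts at 8 weeks are near these shares. Tmem173 (STING), the adaptor of the DNA sensor, rose at 2 and 8 weeks (2.14 and 1.58, adjusted p = 0.0124 and 0.00029), as did the RNA sensor Tlr7 (3.39 and 1.92, adjusted p = 0.00535 and 0.00344).

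Of 10 genes for class I heavy chains and peptide loading, 2 rose at 2 weeks and 2 at 8 weeks, which is near the 16.5% and 21.5% of all genes that rose. Nlrc5, the activator of class I genes, went from 1.78, 1.88 and 1.86 to 7.27, 15.6 and 15.7 CPM at 8 weeks (log2 fold change 2.76, adjusted p = 0.000597) and had risen at 2 weeks (5.24, adjusted p = 0.0176). The heavy chain gene H2-D1 rose by 1.57 and 0.41 on the log2 scale at these times (adjusted p = 0.0342 and 0.0271), and its reads may be shared with other heavy chain genes. Psmb10, the third immunoproteasome subunit, fell at 3 days (-0.56, adjusted p = 0.0297). Of 16 further interferon-induced genes tested at the late times, 10 rose at 2 weeks, and 7 rose and 1 fell at 8 weeks, against the same background. Ifitm3, which blocks viral entry, rose at all 5 times, with log2 fold changes of 0.76, 0.91, 0.68, 3.61 and 2.90 in order of time and adjusted p of 0.0409, 0.0163, 0.0184, 0.00417 and 0.000201. Cxcl10 rose at 4 h from 0.153, 0.390 and 1.06 to 5.40, 2.00 and 2.72 CPM (2.62, adjusted p = 0.0321), and again at 3 days, 2 weeks and 8 weeks (1.82, 7.66 and 3.72). Ifi47, an immunity-related GTPase, rose at 2 weeks (4.74, adjusted p = 0.0121) and at 8 weeks (2.56, adjusted p = 0.000234).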

How the data were processed

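The authors isolated poly(A) RNA from rectal tissue and made libraries with a kit that does not mark strand. According to the submitters' processing notes and the methods, the authors trimmed reads with fastp 0.18.0, aligned them to mm9 with HISAT2, used StringTie 1.3.1 and estimated FPKM with RSEM. The authors deposited whole read counts per gene, not normalized, and FPKM. The program behind the counts and the annotation are in none of the sources used here, so reads shared by similar or overlapping genes may have been split either way. Where a symbol is repeated, the row with the highest mean count was used. The members and gene lists were chosen with earlier results of these data known.

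The test on the counts was that of edgeR 4.0.16, run in R 4.3.3 (TMM, filter on low counts, quasi-likelihood test, Benjamini-Hochberg adjustment) over the groups compared only, in 12 comparisons. All 34 members passed the filter in each. Steps were tested on simulated counts with 200 changed genes. Levels are CPM. Alternatives were median-ratio size factors, no filter, DESeq2 1.42.0, limma 3.58.1 on log2(FPKM + 1) with a minimum mean of 1 and without it and on log2(FPKM + 0.1), all 9 groups in 1 fit, other sham controls, the fit with the mouse number as a block, and every library left out in turn. Mouse numbers were taken to pair mice only where all same-numbered pairs correlated over 0.1 in their deviations from the group mean. This held at 3 days, at 0.36 to 0.45 against at most 0.04 for other pairs, and the labels do not say what the numbers mark. Even so, the edgeR fits behind the calls at 3 days and the differences of effect left the numbers out. The fit with the block is given beside them as an alternative. Sequence comes from RefSeq for GRCm38.p6, and coordinates of 32 genes on mm9 from the GENCODE annotation of NCBIM37 by Ensembl identifier. All genes of the list are described, with values per mouse for those with the largest fold change in each role group at 2 or 8 weeks and those that go against their group, and at most 3 genes of each further pathway list with the smallest p. The list of kinases and further transcription factors is not reported here in full. Some genes given beside these were chosen after their values were seen. Replicates are separate mice, and p-values cover the spread between these. Plots used matplotlib 3.10.9 under Python 3.11.15.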

Additional observations from a re-analysis of the deposited data

Results flagged for a closer look

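In the genes that follow, the radiation effects at 2 time points differed, and the difference passed edgeR's own test of it (adjusted p under 0.05). Values are log2 differences. Between 4 h and 1 day, whose effects share the sham mice, the effect was higher at 1 day in Irf7 (0.72), Ifit3 (0.91) and Bst2 (0.58) and lower in Gbp5 (-1.40). Over all genes 6.02% were higher and 5.38% lower, so 4 of 34 genes is near the background. By edgeR none of them was called against sham at either time, and each fold change crossed from one sign to the other. Set against 4 h, the effect at 3 days was higher in Irf7 (1.37), Ifit3 (1.93), Oasl1 (1.90), Bst2 (0.97) and Zbp1 (2.12), all of them type I-linked, against 9.59% of all genes with a higher and 7.94% with a lower effect. Their fold changes at 4 h were negative and not called.

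Set against 3 days, the effect at 2 weeks was higher in 25 genes, against 10.2% of all genes with a higher and 6.96% with a lower effect. Among transcription factors and sensors these were Stat2 (1.57), Irf7 (1.00), Ddx58 (2.11) and Zbp1 (2.31). Among antiviral effectors they were Ifit1 (2.47), Ifit2 (2.68), Ifit3 (2.08), Ifi44 (2.74), Rsad2 (3.47), Bst2 (1.97), Rtp4 (2.45) and Xaf1 (1.27), with Usp18 (3.53) beside them. The oligoadenylate synthetase genes were Oas2 (4.25), Oas3 (5.10) and Oasl2 (2.63). The GTPases were Gbp2 (5.13), Gbp3 (3.12), Gbp5 (5.19), Igtp (2.98) and Irgm1 (2.21), and the remaining gamma-linked genes were Psmb8 (2.55), Psmb9 (2.41), B2m (2.94) and Ido1 (5.65). From 2 to 8 weeks the effect became lower in Ifit3 (-2.16) and Oas1a (-1.22), against 0.784% of all genes with a higher and 0.495% with a lower effect. In Oas1a it turned from a rise of 0.54 at 2 weeks to a fall of -0.69 at 8 weeks. How far cell makeup takes part in these differences was not tested.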

How the results depend on the processing

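Counts are of the 34 genes called. Median-ratio size factors and no filter on low counts kept all 12 counts within 1.5 times. At 4 h (1 called) both limma fits with a filter gave 2 (Tap1 higher and Psmb9 lower), DESeq2 2 and the fit of all 9 groups 0. At 1 day (1) the fit of all 9 groups gave 0, and the sham mice at 3 days as controls gave 9, all lower. At 3 days (9) limma without a filter gave 4, DESeq2 14, the fit of all 9 groups 5 and the sham mice at 4 h as controls 22. At 2 weeks (30) limma without a filter gave 19. For sham mice against those at 4 h, DESeq2 gave 8 at 3 days (0), 11 at 2 weeks (3) and 4 at 8 weeks (1), limma without a filter 0 at 2 and 8 weeks, and the fit of all 9 groups 1 and 0. Between the irradiated mice at 4 h and 1 day (4) limma without a filter and the fit of all 9 groups gave 1. For differences of effect, limma without a filter gave 3 from 4 h to 3 days (5) and 12 from 3 days to 2 weeks (25), limma on log2(FPKM + 1) 16 for the latter, and from 2 to 8 weeks (2) DESeq2 gave 16 and the fit of all 9 groups 7. The cause of these shifts was not tested.

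With the mouse number as a block the count was 16 at 3 days, 7 for sham mice at 2 weeks and 2 between 4 h and 1 day, and the other 9 counts stayed within 1.5 times. The numbers pair mice by the data at 3 days only. Over all times but that one, same-numbered pairs correlated at -0.25 to 0.25.

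Leaving out 1 library gave 1 to 2 calls at 4 h, 0 to 1 at 1 day, 3 to 16 at 3 days, 14 to 33 at 2 weeks and 23 to 29 at 8 weeks. It gave 0 to 1, 0 to 7 and 1 for the sham groups at 3 days, 2 weeks and 8 weeks, 0 to 4 between 4 h and 1 day, and 3 to 11, 10 to 30 and 1 to 24 for the differences of effect in order of time. Where the sham mice at 3 days stood in at 1 day, the log2 fold changes turned to -1.16 (Irgm1), -0.21 (Tap1), -1.29 (Psmb8), -1.23 (Psmb9) and -2.75 (Ido1). Where the sham mice at 4 h stood in at 3 days, they turned to 1.08 (Irf1), 1.86 (Gbp2), 1.44 (Igtp), 1.07 (Irgm1), 1.00 (Psmb8) and 1.10 (Psmb9), and at 8 weeks to 0.79 (Irf1). For single genes against sham, DESeq2 kept 162 values on their side of the threshold and brought 7 more past it. Genes at under 1 CPM in sham mice, such as Oas3, Usp18 and Ido1 at 2 weeks, have fold changes that rest on few counts.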
